A study of Homo sapiens with 10 samples.

Results

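The 9 genes described here encode enzymes that move nitrogen through the urea cycle and into pyrimidines: CPS1, ASS1, ASL, CAD, DHODH, UMPS, GLUD1, GOT1 and GOT2. They were chosen by symbol, and all 9 were found among the 28281 gene symbols of the 2 count tables. The cells were A549 and H1944, both established lines from human lung adenocarcinoma, each as wild type (WT) and as APE1 knockout (KO), and their poly(A) RNA was sequenced. APE1, the product of APEX1, is the endonuclease that cuts DNA at abasic sites during base excision repair, and the study's title links it to urea cycle genes and to G-quadruplexes in DNA. Each genotype had 3 libraries in A549 and 2 in H1944. A549 cells were grown in DMEM and H1944 cells in RPMI1640 with sodium pyruvate, so line and medium cannot be told apart. How the knockouts were made, and whether a KO group is 1 clone or several, is not given in the sources used here. The labels do not tell separate cultures from repeat preparations, so the p-values reflect only how far these libraries spread, and that spread may be technical.

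The urea cycle takes its nitrogen from ammonia and aspartate, and pyrimidine synthesis from glutamine and aspartate. CPS1 makes carbamoyl phosphate from ammonia in mitochondria for the urea cycle, while CAD makes it from glutamine in the cytosol and starts pyrimidine synthesis, joining it to aspartate. ASS1 condenses citrulline with aspartate, and ASL splits the product into arginine and fumarate. DHODH, an enzyme of the inner mitochondrial membrane, and UMPS carry the pyrimidine ring on to UMP. GLUD1 interconverts glutamate and ammonia, and the aspartate transaminases GOT1 (cytosolic) and GOT2 (mitochondrial) interconvert glutamate and aspartate. A full urea cycle is a feature of liver, and in some lung tumours CPS1 is known to supply carbamoyl phosphate for pyrimidines, while ASS1 and CAD both draw on aspartate.

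Totals ran from 18314224 to 30219850 counts per library. Levels are given as CPM, counts scaled to library size, with TMM scaling over all 10 libraries. The 3 A549 KO libraries are known only by the column numbers 16, 65 and 66, which state no genotype; they were taken as KO because the labels leave no other group for them. A549 WT 1 and KO 65 stood apart from WT 2, WT 3, KO 16 and KO 66. The share of ribosomal RNA genes was 0.284% and 0.337% in that pair, 6.45% to 7.18% in WT 2, WT 3 and KO 66, and 14.2% in KO 16. A549 changes are therefore also given within these library sets, which follow these counts and no label. WT 2 and WT 3 were nearly alike (chi-square between libraries 1.80 per gene), while KO 16 and KO 66, of the same set, differed by 103. The A549 level of APEX1 was 165, 264 and 247 CPM for WT 1, 2 and 3 and 58.6, 64.3 and 109 CPM for KO 16, 65 and 66. In H1944 it measured 239.8 and 238.7 CPM in WT and 85.5 and 85.8 CPM in KO, so APEX1 mRNA was lower, but not absent, in each library taken as KO in A549 and labelled KO in H1944.

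Of 9 epithelial and lung adenocarcinoma markers, 9 had at least 1 count in A549 and 8 in H1944, where NKX2-1 was at 0. NKX2-1 averaged only 0.0783 CPM in A549 WT and 0.0304 CPM in A549 KO, and SFTPB at most 0.140 CPM in any group. Such levels are near what 0 counts still allow, so they show neither expression nor a difference between lines. Several of the 9 markers differed between H1944 WT and KO (n = 2 each). Mean EPCAM went from 68.9 to 0.931 CPM, CDH1 from 207 to 7.87 CPM, NAPSA from 8.93 to 0.844 CPM and KRT19 from 1.35 to 0.0666 CPM. KRT8 went from 5440 to 9566 CPM and KRT18 from 3957 to 7788 CPM. In A549 (n = 3 each) the means of these 6 markers went the other way. EPCAM went from 23.4 to 64.2 CPM without overlap between libraries. With overlap, CDH1 went from 45.9 to 73.8, NAPSA from 1.09 to 1.34 and KRT19 from 135 to 239 CPM. KRT8 went from 11021 to 9997 and KRT18 from 7151 to 6106 CPM, also with overlap. Fibroblast, leukocyte and endothelial markers summed to at most 17.1, 8.23 and 2.50 CPM in any library. Of 6 hepatocyte markers, FGB, which encodes the fibrinogen beta chain, carried most of the sum in both A549 groups and in H1944 WT (mean 791 CPM), and it averaged 1.18 CPM in H1944 KO. The sum of these markers was 92.3 to 152 CPM in A549 WT and 120 to 173 CPM in A549 KO, but 774 to 811 CPM in H1944 WT and 2.69 to 3.08 CPM in H1944 KO. ALB, the marker most particular to hepatocytes, was at 0.421 CPM in H1944 WT and 0.0788 CPM in A549 WT.

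Because the title names G-quadruplexes, the bases upstream of the starts of the 9 genes were read from RefSeq (GRCh38.p14) and searched for 4 runs of GGG with 1 to 7 bases between runs, on both strands. The 250 bases before 12 start sites of the 9 genes were searched. The motif was in 4 of these 12 windows, belonging to ASS1, ASL, CAD and DHODH, and in 23.5% of 35114 windows of the same length from all genes. Those windows include genes too low to be tested here. Of 12266 genes tested in H1944 that had a window, 4668 held the motif, as did 4 of the 9. The stretches below, written 5′ to 3′ on the strand of the gene, show where it lies; capitals mark the runs of 3 or more G, or of 3 or more C where the G runs are on the opposite strand.
ASS1, chr9:130444847-130444869, plus strand: GGGGGccGGGcccGGGGGcGGGG
ASL, chr7:66075614-66075648, plus strand: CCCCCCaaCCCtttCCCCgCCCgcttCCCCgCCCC
CAD, chr2:27217312-27217341, plus strand: CCCCgCCCCttacgtgCCCggCCCCgCCCC
DHODH, chr16:72008535-72008556, plus strand: GGGcaggctGGGagaGGGcGGG
CPS1, chr2:210477653-210477681, plus strand: actcctaatCCCtCCCCacaCCCaggttt
CPS1, chr2:210593105-210593354, plus strand: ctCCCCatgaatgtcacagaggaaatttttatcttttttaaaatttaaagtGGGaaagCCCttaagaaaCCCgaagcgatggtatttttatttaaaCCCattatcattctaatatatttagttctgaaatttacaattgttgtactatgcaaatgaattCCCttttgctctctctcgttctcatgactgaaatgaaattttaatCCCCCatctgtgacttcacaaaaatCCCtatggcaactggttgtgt

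The ASS1 stretch lies 114 to 92 bases before the downstream of its 2 RefSeq starts, and the window of the other ASS1 start did not hold the motif. The ASL and CAD stretches had the G runs on the opposite strand, and the CAD stretch ends 28 bases before the start. CPS1 is shown because it was the member with the largest A549 change and none of its 3 windows held the motif; the first CPS1 stretch ends at the annotated start of the gene, and the second precedes an internal start. The CPS1 windows were 33.6% to 48.4% G and C, against 78.8% for the ASS1 window with the motif. UMPS, GLUD1, GOT1 and GOT2 had no match either. A match only describes the letters, and no match says nothing of other parts of the gene. Among genes tested in H1944 that had a window, 31.6% of 4668 with the motif and 34.8% of 7598 without it were lower in KO, and 39.7% and 32.5% were higher.

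The first question was the level of these mRNAs in unmodified cells of each line. H1944 WT held far more CPS1 and ASS1 than A549 WT, and less of the pyrimidine enzymes CAD, DHODH and UMPS and of GOT2. CPS1 (chromosome 2, 210477682 to 210679107, GENCODE 29, hg38) measured 46.3, 19.2 and 22.5 CPM in A549 WT 1, 2 and 3 and 1820.3 and 1819 CPM in H1944 WT 1 and 2. The groups did not overlap, and the 2 H1944 libraries were nearly equal while A549 WT 1 stood above WT 2 and WT 3. This was a 62.1-fold difference (log2 5.96, SE 0.57, edgeR adjusted p 0.000103). ASS1 (chromosome 9, 130444929 to 130501274) measured 29.5, 9.75 and 9.85 CPM in A549 WT 1, 2 and 3 and 1382 and 1375 CPM in H1944 WT. It too was highest in WT 1 among the A549 WT libraries and higher in each H1944 library, by 84.2-fold (log2 6.40, SE 0.79, edgeR adjusted p 0.000373). Without A549 WT 1, which leaves the nearly alike WT 2 and WT 3 as A549 WT, this log2 difference was 7.16 (edgeR adjusted p 0.00065). By CPM, CPS1 and ASS1 ranked 37 and 66 among 17677 genes in H1944 WT, and 6556 and 8763 in A549 WT.

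The pyrimidine enzymes lay the other way. CAD (chromosome 2, 27217390 to 27243943) measured 163, 192 and 185 CPM in A549 WT 1, 2 and 3 and 86.8 and 79.4 CPM in H1944 WT, a 2.17-fold lower level in H1944 (log2 -1.12, SE 0.18, edgeR adjusted p 0.00131). DHODH (chromosome 16, 72008588 to 72027664) measured 26.5, 46.4 and 44.8 CPM against 14.2 and 14.5 CPM. It was 2.73-fold lower in H1944 (log2 -1.45, SE 0.33, edgeR adjusted p 0.00726), a call that was lost without H1944 WT 1 or WT 2 (edgeR adjusted p 0.0589 and 0.0564). UMPS (chromosome 3, 124730366 to 124749273) measured 69.1, 78.8 and 79.2 CPM against 45.6 and 45.6 CPM, 1.66-fold lower (log2 -0.73, SE 0.15, edgeR adjusted p 0.0044). All 3 enzymes of the path from carbamoyl phosphate to UMP were thus lower in H1944 WT, with no overlap between the lines.

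Of the enzymes that exchange amino groups, GOT2 alone passed, and GOT1 and GOT2 were not tested against each other. GOT2 (chromosome 16, 58707131 to 58734357) measured 246, 299.6 and 301 CPM in A549 WT 1, 2 and 3 and 137 and 138 CPM in H1944 WT, 2.05-fold lower in H1944 (log2 -1.04, SE 0.15, edgeR adjusted p 0.00084). GOT1 (chromosome 10, 99396870 to 99431569) measured 38.9, 66.7 and 67.1 CPM against 79.9 and 84.1 CPM. Its groups did not overlap, but the log2 difference of 0.51 did not pass (SE 0.27, 95% interval -0.10 to 1.12, edgeR adjusted p 0.151). GLUD1 (chromosome 10, 87050486 to 87094866) measured 157, 124 and 124 CPM against 101 and 98.9 CPM, a log2 difference of -0.43 that did not pass (95% interval -0.84 to -0.02, edgeR adjusted p 0.0809), though it did without A549 KO 66 in the fit (0.0378). ASL (chromosome 7, 66075798 to 66093558) measured 13.6, 29.99 and 26.3 CPM against 33.7 and 28.2 CPM. The lines overlapped, with a log2 difference of 0.41 (95% interval -0.33 to 1.15, edgeR adjusted p 0.333), so the ASS1 and CPS1 excess of H1944 had no counterpart of that size in ASL. Of the 9 genes 6 passed, 2 higher and 4 lower in H1944, where 43.5% of all genes tested passed (22.2% higher and 21.2% lower). H1944 lay above A549 without overlap for 3 of the 9 and below it for 5, against 35.4% and 32.8% of all genes.

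**Figure D1:**
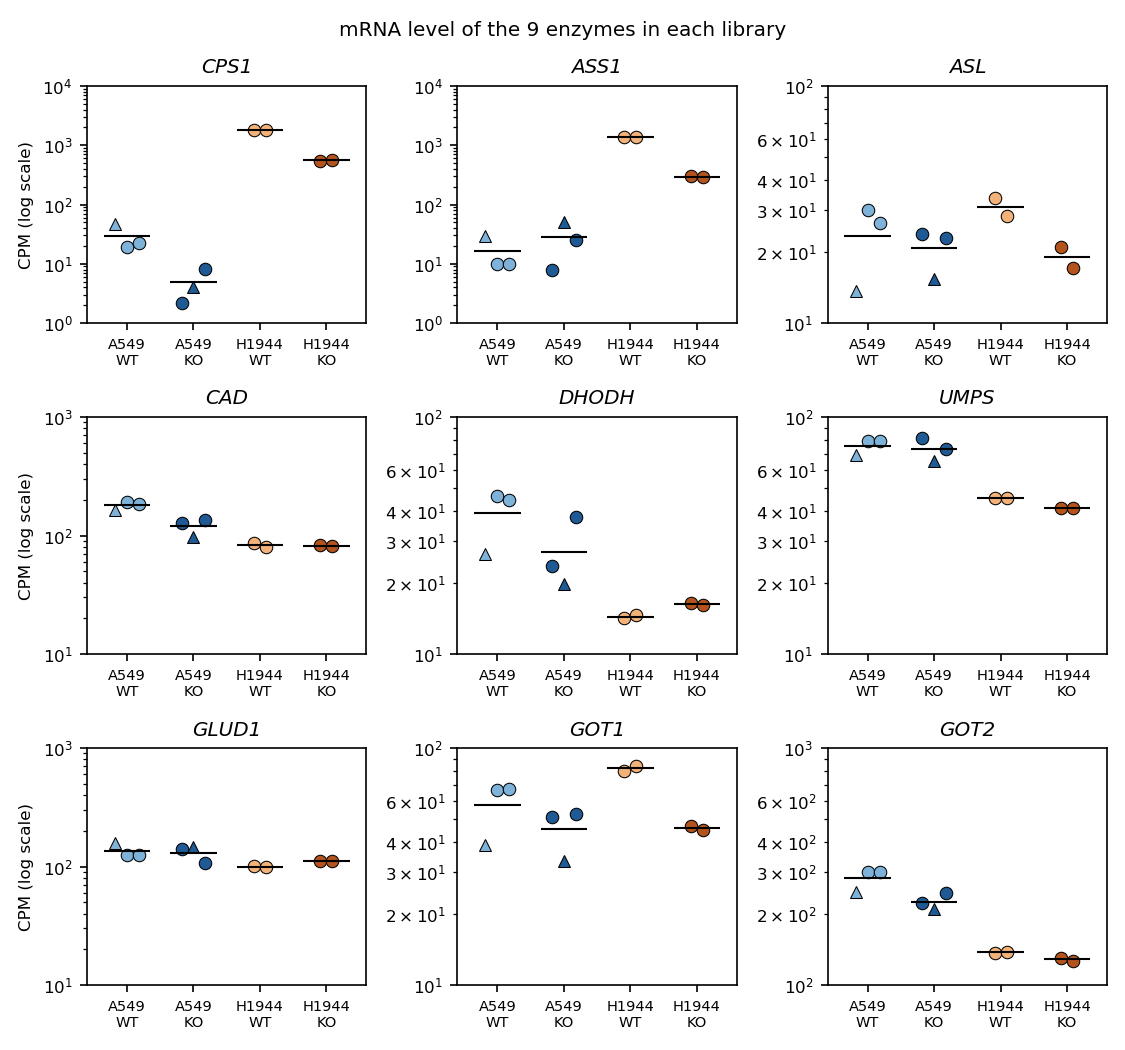
CPM (log axis) of each of the 9 genes in each of the 10 libraries; each point is 1 library, the line is the group mean, and triangles mark A549 WT 1 and KO 65. CPS1 and ASS1 sit far higher in H1944 than in A549, and the H1944 KO libraries sit below the H1944 WT libraries for CPS1, ASS1, ASL and GOT1.

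Levels can be compared between genes only per length, and the next values are CPM per kilobase of coding sequence, with the longest coding sequence in GENCODE 29. Annotated exons reach beyond the coding sequence, and unevenly. Their union was 6921 against 1185 coding bases for DHODH, 7579 against 1440 for UMPS and 8422 against 6675 for CAD. The order of the genes and the size of the ratios between genes below therefore depend on this choice of length. In A549 WT the order was GOT2 at 219 ± 24.3, GLUD1 at 80.6 ± 11.2, UMPS at 52.6 ± 3.98, GOT1 at 46.5 ± 13.0, DHODH at 33.1 ± 9.32, CAD at 26.98 ± 2.26, ASL at 16.7 ± 6.19, ASS1 at 13.2 ± 9.21 and CPS1 at 6.49 ± 3.27 (SD, n = 3). UMPS and GOT1, GOT1 and DHODH, DHODH and CAD, ASL and ASS1, and ASS1 and CPS1 overlapped between libraries, so their order is not resolved. In H1944 WT ASS1 came first at 1115 ± 4.12 and CPS1 next at 403 ± 0.161, above GOT2 at 107 ± 0.866 (SD, n = 2). GOT1, GLUD1, UMPS and ASL followed at 66.2, 59.7, 31.6 and 22.2, and CAD and DHODH, which overlapped, were last at 12.4 and 12.1. CPS1 and ASS1 thus had the highest levels in H1944 WT and the lowest means in A549 WT, where ASL, ASS1 and CPS1 were not resolved as neighbours and ASS1 in WT 1 was above ASL. In A549 KO the mean of ASS1 was the sixth of the 9, at 22.7 ± 17.7 (SD, n = 3).

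**Figure D2:**
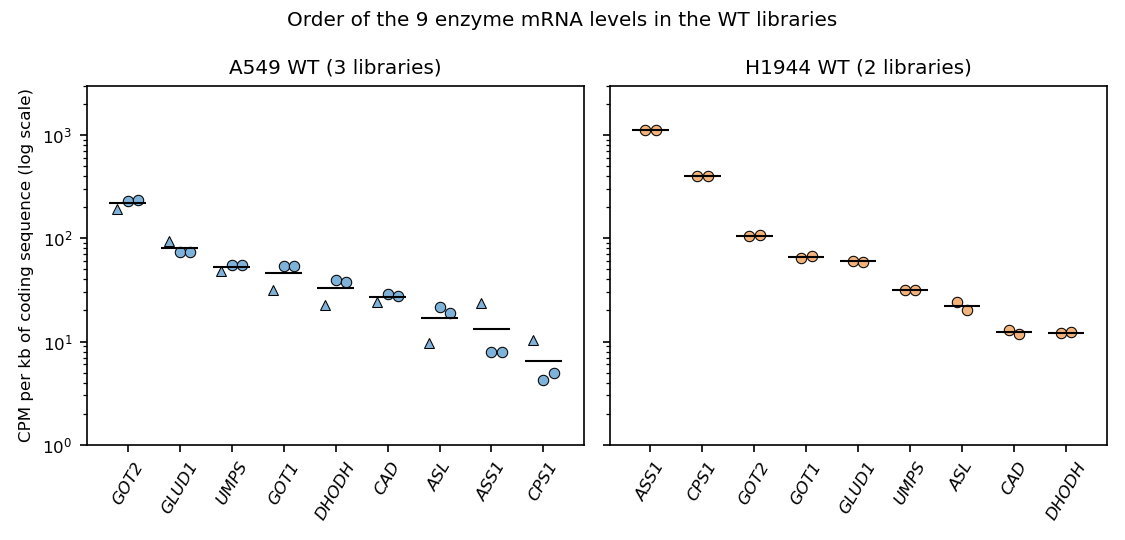
CPM per kilobase of coding sequence (log axis) in the WT libraries of each line, genes ordered by their mean; points are libraries, lines are means and the triangle is A549 WT 1. ASS1 and CPS1 have the lowest means of the 9 in A549, where the libraries of ASL, ASS1 and CPS1 overlap as neighbours, and the highest in H1944.

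The second question was how APE1 knockout changed these mRNAs in H1944. CPS1 and ASS1 fell several-fold, ASL and GOT1 fell by less than 2-fold, and the pyrimidine enzymes moved little. CPS1 went from 1820.3 and 1819 CPM in WT 1 and 2 to 548 and 561 CPM in KO 1 and 2, a 3.28-fold fall (edgeR adjusted p 1.06e-21, log2 fold change -1.71, SE 0.03). ASS1 went from 1382 and 1375 to 299.8 and 294 CPM, a 4.65-fold fall (edgeR adjusted p 2.76e-23, log2 fold change -2.22, SE 0.03). For both genes the drop was many times the gap between libraries of a group. KO cells of H1944 still held more of each than any A549 library.

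ASL fell less, from 33.7 and 28.2 CPM to 20.9 and 17.1 CPM, 1.63-fold (edgeR adjusted p 2.59e-05, log2 fold change -0.71, SE 0.10). GOT1, which makes or uses cytosolic aspartate, went from 79.9 and 84.1 to 46.9 and 44.99 CPM, a 1.78-fold fall (-0.83, SE 0.05, edgeR adjusted p 3.09e-12). CPS1, ASS1, ASL and GOT1 were each lower in both KO libraries than in both WT libraries. GOT2, the mitochondrial transaminase, went from 137 and 138 to 130.0 and 126 CPM, a log2 fold change of -0.10 (SE 0.04, edgeR adjusted p 0.023). GLUD1 rose slightly, from 101 and 98.9 to 112 and 111 CPM (log2 fold change 0.16, SE 0.04, edgeR adjusted p 0.00146).

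For the pyrimidine enzymes, CAD measured 86.8 and 79.4 CPM in WT and 83.3 and 81.1 CPM in KO. The groups overlapped, and the log2 fold change of -0.02 had a 95% interval of -0.12 to 0.08 (edgeR adjusted p 0.773), which leaves out a change of the size seen in CPS1 or ASS1. DHODH measured 14.2 and 14.5 CPM in WT and 16.4 and 16.1 CPM in KO, a log2 fold change of 0.17 that did not pass (95% interval -0.03 to 0.37, edgeR adjusted p 0.12). UMPS fell slightly, from 45.6 and 45.6 to 41.1 and 41.3 CPM (log2 fold change -0.14, SE 0.06, edgeR adjusted p 0.0332).

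Of the 9 genes 7 passed (77.8%), 6 lower and 1 higher, where 67.1% of all 16626 genes tested passed (33.9% lower and 33.2% higher). KO lay below WT without overlap for 6 of the 9 and above it for 2, against 41.4% and 41.1% of all genes. Falls of at least 2-fold were called for 2 of the 9, CPS1 and ASS1, and for 11.3% of all genes, while rises of that size were called for none of the 9 and 10.1% of all genes. The share that passed in either direction was thus near the background. For CPS1 and ASS1, 6.07% and 4.37% of all genes had a lower log2 fold change. UMPS and GOT2 did not pass by DESeq2 (adjusted p 0.165 and 0.108). With each of the 4 libraries left out in turn, UMPS never passed (edgeR adjusted p 0.0698 to 0.136), and GOT2 passed only without WT 1 (0.0215). With the spread of all 10 libraries in 1 fit, none of the 9 passed, CPS1, ASS1 and GOT1 having an edgeR adjusted p of 0.0775, 0.0983 and 0.103. Epithelial markers, EPCAM and CDH1 among them, and the hepatocyte marker FGB moved with genotype in the same H1944 libraries, as given above, and their part in these changes was not tested. The biological coefficient of variation was 4.74% in the H1944 fit and 32.8% in that of all libraries.

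**Figure D3:**
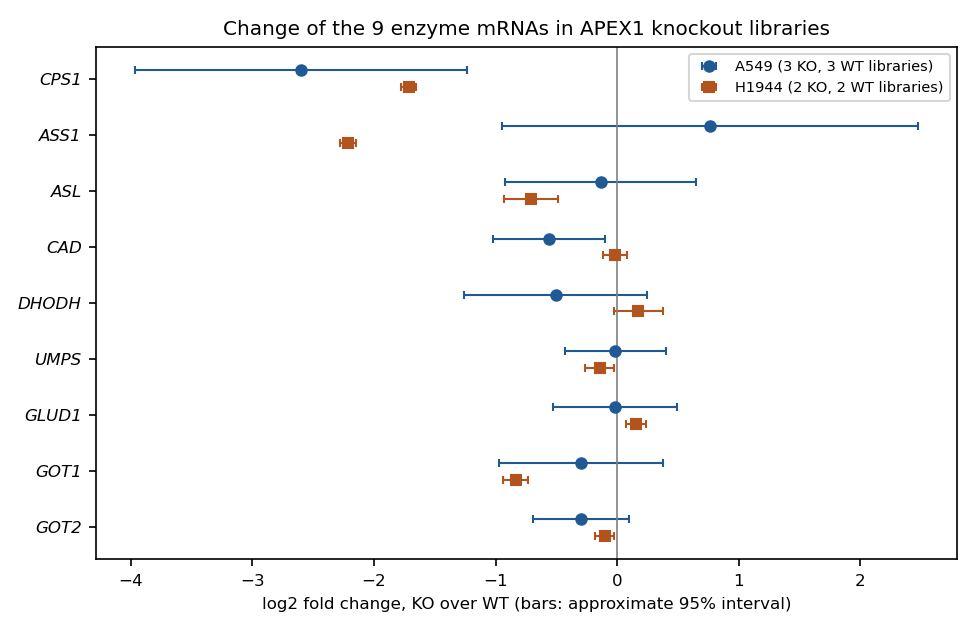
Log2 fold change of KO over WT for each of the 9 genes in A549 (circles) and H1944 (squares), with approximate 95% intervals from the edgeR fits of each line. CPS1 lies below 0 in both lines, ASS1 lies below 0 in H1944 only while its A549 interval spans 0, and A549 intervals are wider throughout.

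In A549 the same comparison gave a lower CPS1 in each KO library, with no gene of the 9 past the threshold. CPS1 measured 46.3, 19.2 and 22.5 CPM in WT 1, 2 and 3 and 2.15, 4.13 and 8.22 CPM in KO 16, 65 and 66, from 47 to 967 counts per library. The groups did not overlap, with a log2 fold change of -2.60 (SE 0.58, 95% interval -3.96 to -1.23, edgeR adjusted p 0.567, exact permutation p 0.1). DESeq2 called it (adjusted p 0.00069), while the other alternatives gave edgeR or limma adjusted p of 0.102 or more. Without KO 66 the log2 fold change was -3.205 and in WT 2, WT 3, KO 16 and KO 66 alone it was -2.003. Only 0.0886% of 15806 genes had a lower fold change. ASS1 measured 29.5, 9.75 and 9.85 CPM in WT and 7.92, 51.4 and 24.7 CPM in KO 16, 65 and 66. KO 16 was below each WT library and KO 65 above each, so the groups overlapped (log2 fold change 0.76, 95% interval -0.95 to 2.47, edgeR adjusted p 0.995, exact permutation p 0.7). With 1 library left out the log2 fold change of ASS1 ran from 0.000139 without KO 65 to 1.55 without WT 1.

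CAD was the other gene of the 9 with an unadjusted p under 0.05 in A549. It measured 163, 192 and 185 CPM in WT and 128, 96.2 and 135 CPM in KO 16, 65 and 66, each KO library below each WT library (log2 fold change -0.56, 95% interval -1.02 to -0.10, edgeR adjusted p 0.803, exact permutation p 0.1). GOT2 also had no overlap, with 246, 299.6 and 301 CPM in WT and 221, 209 and 245 CPM in KO (log2 fold change -0.30, edgeR adjusted p 0.992, exact permutation p 0.1), although WT 1 and KO 66 were close. An exact permutation p of 0.1 is the smallest that 3 against 3 libraries allow. DHODH (-0.51), GOT1 (-0.30), ASL (-0.14), GLUD1 (-0.02) and UMPS (-0.01) overlapped between groups, with edgeR adjusted p of 0.995 and exact permutation p between 0.2 and 0.9.

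In A549 none of the 9 passed, where 1 of 15806 genes (0.00633%) did, and 2 of the 9 had an unadjusted p under 0.05. KO lay below WT without overlap for 3 of the 9, CPS1, CAD and GOT2, where this held for 4.98% of all genes; it lay above WT without overlap for none of the 9 and 5.64% of all genes. The median log2 fold change of the 9 was -0.30, against 0.02 over all genes tested.

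Within the A549 library sets CPS1 and CAD kept their direction in each KO library and ASS1 did not. For CPS1, CAD and GOT2, whose groups did not overlap, that direction was fixed in advance, so only the sizes are new. The log2 difference of CPS1 was -3.46 for KO 65 against WT 1, and -3.22 and -1.33 for KO 16 and KO 66 against the mean of WT 2 and WT 3. That of CAD was -0.76, -0.56 and -0.48, and that of GOT2 -0.23, -0.44 and -0.29, for these libraries in turn. For ASS1 the values were 0.80, -0.30 and 1.33. DHODH gave -0.42, -0.95 and -0.27 and GOT1 -0.23, -0.39 and -0.34, while ASL, UMPS and GLUD1 changed sign between libraries. The sets were drawn from these same counts, and the share of all genes that keep their sign within them was not counted. The constant sign of DHODH and GOT1, whose groups overlapped, is therefore no test of a change. KO 16, the library with the highest share of ribosomal RNA, gave the lowest value of the 3 for ASS1, DHODH, GOT1 and GOT2. KO 65 gave the lowest for CPS1 and CAD, and KO 66 for ASL, UMPS and GLUD1. The part of RNA composition in these values was not tested.

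The sets also differed in some of these genes by as much as WT from KO. The log2 difference of ASS1 was -1.58 for WT 2 and WT 3 against WT 1, and -1.87 for KO 16 and KO 66 against KO 65. Those of ASL were 1.04 and 0.60 and those of GOT1 0.78 and 0.64. As a term in the fit, the set had a log2 effect of -1.65 on ASS1, 0.81 on ASL and 0.69 on GOT1 (edgeR adjusted p 0.0601, 0.0593 and 0.0516). None of the 9 passed for that term, where 5.83% of all genes did.

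Whether the change differed between lines was tested in 1 fit of all 10 libraries. The A549 change of ASS1 was above that of H1944 by 2.99 on the log2 scale (SE 0.997, 95% interval 0.74 to 5.25), and this did not pass over all genes (edgeR adjusted p 0.118). It passed by DESeq2 (adjusted p 0.0142). By edgeR it passed without A549 WT 1 (adjusted p 0.0403), without KO 16 (0.0465) and without WT 1 and KO 65 together (0.0177). Fits without WT 1 leave only the nearly alike WT 2 and WT 3 as A549 WT. CAD had a difference of -0.58 (95% interval -1.13 to -0.02, edgeR adjusted p 0.211) and passed without WT 1 and KO 65 (0.0478). For CPS1 the difference was -0.88 (95% interval -2.51 to 0.74, edgeR adjusted p 0.524), an interval that allows a several-fold lower A549 change but not a several-fold higher one. None of the 9 passed, 2 had an unadjusted p under 0.05 and DESeq2 called 1, where edgeR called 6.95% of all genes, 4.1% with a higher and 2.85% with a lower A549 change (3.99% higher by at least 2-fold).

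The balance between CPS1 and CAD, the carbamoyl phosphate synthetases of the 2 pathways, moved towards CAD in each KO library of both lines. Per kilobase of coding sequence, the log2 ratio of CPS1 to CAD in A549 was -1.25, -2.76 and -2.48 for WT 1, 2 and 3 and -5.33, -3.98 and -3.47 for KO 16, 65 and 66. It was 4.95 and 5.08 in H1944 WT and 3.28 and 3.35 in H1944 KO. CAD thus exceeded CPS1 in each A549 library, by 11.1-fold to 40.1-fold in KO, and CPS1 exceeded CAD in each H1944 library, still by 9.72-fold and 10.2-fold in KO. These ratios combine values already given and were not tested, and their size depends on the use of coding length. The union of annotated exons was 10775 bases for CPS1 and 8422 for CAD, against 4518 and 6675 coding bases.

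The log2 ratio of ASS1 to CAD, both users of aspartate, was 6.43 and 6.55 in H1944 WT and 4.28 and 4.29 in H1944 KO. For A549 the ratio was -0.03, -1.86 and -1.80 in WT 1, 2 and 3 and -1.58, 1.53 and -0.02 in KO 16, 65 and 66, with overlap. The ratio of GOT2 to GOT1 was 1.64 and 1.58 in H1944 WT and 2.66 and 2.70 in H1944 KO, and 4.17 to 6.07 over the 6 A549 libraries, where it followed the library sets rather than the genotype. All 9 genes together took 0.385% and 0.379% of the counts of the H1944 WT libraries and 0.130% in each H1944 KO library, with CPS1 and ASS1 making up 86.5% and 86.7% of that in WT and 65.3% and 66.1% in KO.

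**Figure D4:**
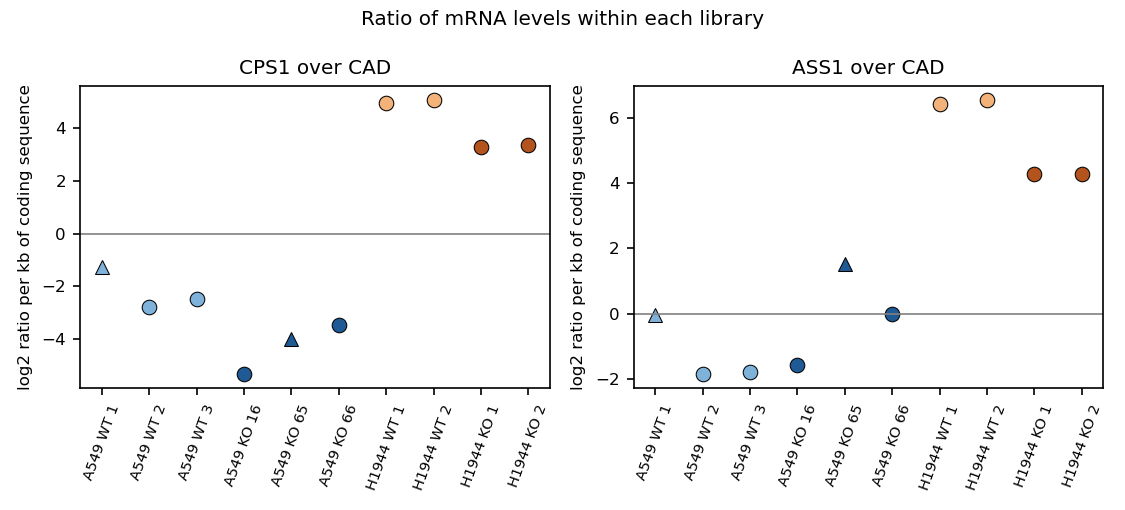
Log2 ratio of CPS1 to CAD (left) and of ASS1 to CAD (right) per kilobase of coding sequence in each library; the line at 0 marks equal levels and triangles mark A549 WT 1 and KO 65. KO libraries lie below the WT libraries of their line for CPS1 over CAD in both lines, and for ASS1 over CAD in H1944 only.

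Other genes of these pathways were taken from 6 lists, whose H1944 counts stand against 33.2% of all genes higher and 33.9% lower. Of 10 genes of the urea cycle and its carriers, 7 were tested in each line, and in H1944 5 fell and 2 rose. Besides CPS1, ASS1 and ASL, SLC25A13, the mitochondrial carrier that exports aspartate, fell (edgeR adjusted p 7.19e-09, log2 fold change -0.70, SE 0.07), and so did NAGS, which makes the activator of CPS1 (adjusted p 0.0496, -0.63, SE 0.28), at 2.46 CPM in WT. The NAGS call was only just under the threshold, at 44 to 58 counts per H1944 library, and its hold under the alternatives is not given. SLC25A15, the ornithine carrier (8.09e-07, 0.45, SE 0.06), and ARG2, mitochondrial arginase (0.000838, 0.31, SE 0.07), rose. OTC, which joins carbamoyl phosphate to ornithine, and ARG1, the liver arginase, were below 0.2 CPM in the WT means of both lines and were not tested. None of the 7 passed in A549.

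The malate-aspartate shuttle and aspartate uptake list had 3 of 7 tested genes lower and none higher in H1944. MDH2, mitochondrial malate dehydrogenase (log2 fold change -0.68, edgeR adjusted p 1.46e-13), and SLC25A12 (-0.47, 2.35e-05), the other aspartate exporter, fell with SLC25A13. The other 4 tested genes did not pass, among them SLC1A2, a glutamate and aspartate transporter (-1.21, 0.06). SLC25A13 counts in both this list and that of the urea cycle. GOT1, SLC25A12 and SLC25A13 were lower while GOT2 was nearly level, and a link between them was not tested. In A549 none of the 7 passed, and the list's median was -0.22 against 0.02 over all genes.

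Past UMP and in salvage, 5 of 21 tested genes rose and 10 fell in H1944, a share near the 67.1% of all genes that passed. CTPS1, which makes CTP from UTP, rose 2.44-fold: WT libraries averaged 93.0 ± 1.12 CPM and KO libraries 227 ± 1.95 CPM (SD, n = 2 per group; edgeR adjusted p 1.04e-17). The nucleoside diphosphate kinases NME1 and NME2 rose too (log2 fold change 0.45 and 0.37, edgeR adjusted p 1.69e-10 and 1.28e-09); they are close paralogs whose reads may be shared. DCK, the kinase that salvages deoxycytidine, fell (-0.76, 2.19e-10). None of 20 tested genes passed in A549.

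Among glutamate, glutamine and asparagine genes 5 of 15 rose and 5 fell in H1944, again near the 67.1% of all genes. GLUL, which fixes ammonia into glutamine, fell from 208 ± 6.81 to 64.6 ± 1.81 CPM (log2 fold change -1.68, edgeR adjusted p 4.01e-19) and ASNS, which takes an amide from glutamine to make asparagine, from 121 ± 2.60 to 57.6 ± 2.73 CPM (-1.07, 5.01e-15; SD, n = 2 per group). GPT, alanine transaminase, fell from 9.97 to 0.841 CPM (-3.56, 2.57e-12), and BCAT1, a branched-chain transaminase, rose from 62.6 to 125 CPM (1.00, 4.65e-15). In the citrulline and nitric oxide list NOS1 and NOS3, synthases that turn arginine into citrulline, rose (3.16 and 3.27, edgeR adjusted p 1.69e-16 and 1.68e-10) from 3.39 and 0.757 CPM, and DDAH1, which frees citrulline from methylated arginine, fell (-1.94, 1.62e-16). Of these lists, none of 14 and none of 5 tested genes passed in A549.

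Of 11 transcription factors known to act on urea cycle genes, 6 fell and 3 rose in H1944, where 67.1% of all genes passed. FOXA1 fell (log2 fold change -1.07, edgeR adjusted p 5.95e-12), as did PPARA (-0.97, 2.13e-10), and MYC rose (0.45, 3.07e-10). The hepatocyte marker sum fell with them in H1944, as given above, and the part of these factors in the change of CPS1 and ASS1 was not tested. In A549 none of the 11 passed.

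Over the 10 libraries and 12112 genes with a mean of at least 5 CPM, the log2 profiles most like that of CPS1 were SVEP1 (Pearson r 0.991), DGKG (0.989) and PPP1R8 (0.986). For ASS1 they were C1RL (0.996), CFI (0.995) and FAM184B (0.992). The points share line and genotype, and 4 of 10 are H1944 libraries, so these values mainly follow the gap between lines. SVEP1 had group means of 2.29 CPM in A549 WT, 0.285 CPM in A549 KO, 134 CPM in H1944 WT and 38.0 CPM in H1944 KO. For CFI these means were 0.987, 1.95, 198 and 34.8 CPM. Among the 9 genes themselves r was 0.90 for CPS1 with ASS1, 0.93 for ASL with GOT1, and 0.94, 0.95 and 0.96 for CAD with DHODH, CAD with GOT2 and UMPS with GOT2, over the same 10 libraries.

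Shared reads may bear on several of the 9. GLUD1 has a near-identical copy, GLUD2, with 14 to 57 counts per A549 library and 0 to 5 per H1944 library, and the pseudogene GLUD1P3 had 9 to 37 counts, against 2115 or more for GLUD1 in each library. GLUD1 shares 464 exonic bases with SHLD2 on the opposite strand, and ASL shares 563 with AC068533.4 on its own strand in GENCODE 29. On the opposite strand GOT1 shares 651 exonic bases with AL391684.1, and GOT2 shares 162 with AC092378.1. The strand setting of the counting is not given in the sources used here, so reads of such stretches cannot be assigned. CPS1-IT1, within an intron of CPS1, had at most 5 counts in any library. A search by symbol gave no pseudogene of ASS1 or GOT2, so reads shared with any such copies could not be checked.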

How the data were processed

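RNA counts from 10 libraries were analysed. Per the submitters' processing notes, Trim Galore 0.5.0, HISAT2 2.1.0, featureCounts 1.6.4, DESeq2 (no version) and hg38 were used; annotation and strand setting are not given in the sources used here. The authors deposited unnormalized read counts for each gene symbol, and no per-sample column was left out. Genes were kept by filterByExpr (minimum count 10), scaled by TMM and tested with edgeR 4.0.16 in R 4.3.3 (quasi-likelihood, robust), with Benjamini-Hochberg adjustment over all genes and a threshold of 0.05. KO was compared with WT within each line. The difference between WT lines and the difference of changes came from 1 fit of all libraries. The 2 tables held the same symbols in the same order and were joined as raw counts. Standard errors are approximate: each is the size of the log2 fold change divided by √F, and 95% intervals follow from them. Exact permutation tests were 2-sided on log2 CPM with a prior count of 2. Alternatives were RLE scaling, no filter, DESeq2 1.42.0, limma-voom 3.58.1, each library left out, the library set as a term, a replicate block and other library subsets. Coordinates and coding lengths are from GENCODE 29.

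The 9 genes and the lists were chosen with earlier results of these data known. Named genes were the 9, APEX1, up to 4 others per list with the smallest adjusted p in H1944 and the 3 most similar profiles for CPS1 and for ASS1; SLC1A2, OTC, ARG1, the markers and the overlapping genes are named outside that rule, and 1 gene and 1 sequence that it would include are not reported here. A549 WT 2 and WT 3 differed by a chi-square of 1.80 per gene, and the H1944 WT and KO pairs by 2.91 and 2.62. The other A549 pairs of a group differed by 103 to 209. No pair was identical, and all were kept as separate libraries. WT 2 and WT 3 may be repeats of 1 preparation, which the labels do not tell. Depth allows a level of up to 0.0986 to 0.144 CPM where 0 counts were seen (3 counts per library, counting error only).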

Additional observations from a re-analysis of the deposited data

Results flagged for a closer look

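None of the 9 enzyme genes differed between lines in its response to knockout by edgeR, but 7 pathway genes named above did, of 31 genes by the rule for named genes, by the test of the A549 change minus the H1944 change in the fit of all 10 libraries. Over all genes 6.95% passed this test, and the pathway genes were picked for a small adjusted p in H1944, which favours such a difference. GPT, DDAH1 and GLUL had differences of 3.39, 1.92 and 2.71 (edgeR adjusted p 0.00643, 0.0152 and 0.031), and each fell in H1944 and did not pass in A549. CTPS1, NOS3, NOS1 and MYC had differences of -1.58, -2.98, -4.32 and -0.99 (edgeR adjusted p 0.0184, 0.0122, 0.0304 and 0.0103), and each rose in H1944. Of these, CTPS1, NOS3 and MYC did not pass in A549, and NOS1 was too low to be tested there. NOS1 had a mean of 0.378 CPM in A549 WT and 0.166 CPM in A549 KO, so the size of its difference rests on few counts. GPT lay between 0.848 and 2.01 CPM in A549 WT.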

How the results depend on the processing

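Of 117 values of the 9 genes under the A549 alternatives, 8 turned direction. None of the 9 passed in the main A549 fit, so no called gene could turn. Leaving out 1 library, the log2 fold change ran from -0.40 to 0.0728 for ASL, -0.12 to 0.0731 for UMPS and -0.10 to 0.13 for GLUD1, which was 0.0130 in WT 2, WT 3, KO 16 and KO 66 alone; that of CAD in H1944 ran from -0.0787 to 0.0478. In A549 the 1 gene called higher became 2 without the low-count filter, 81 by DESeq2, 0 in the larger set alone, 10 in the fit of all 10 libraries and 0 without any 1 library; the 0 called lower became 44 by DESeq2, 1 with the set as a term and 6 in the fit of all 10, and DESeq2 called 1 of the 9 lower (CPS1). In the fit of all 10 libraries H1944 had 1177 genes higher and 1345 lower, and 0 and 0 of the 9. Without 1 library the WT lines differed in 2399 to 5066 genes higher and 1739 to 4674 lower, and the difference of changes in 249 to 1606 higher and 133 to 1286 lower, with 0 to 1 of the 9 higher. For that difference DESeq2 called 1262 higher and 1056 lower, with 1 of the 9 (ASS1), and without WT 1 and KO 65 the counts were 1732 and 1662, with 1 (ASS1) and 1 (CAD) of the 9. The cause was not tested where none is named. With the replicate block 5568 genes rose and 5660 fell in H1944, with 6 of the 9 lower and 1 higher as without it. The correlation between libraries of the same number, as deviations from their group means over genes, was 0.0132. It sets 1 WT difference against 1 KO difference between libraries that differed little. It therefore cannot show whether libraries of the same number share a culture or batch. In A549 no block could be fitted, since the KO columns carry no labelled replicate number. Median changes over all genes moved by under 0.1 (log2) with scaling.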
